A study of Mus musculus with 9 samples.

Results

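The C/EBP family was followed across splenic monocytes through 7 genes, Cebpa, Cebpb, Cebpd, Cebpe, Cebpg, Cebpz and Ddit3, taken by symbol from the 55487 gene IDs of each count table. A second, shorter ID also carries the symbol Ddit3, lies wholly within the exons of the first and had 0 counts in every library, so the 8 matching rows stand for 7 genes. The study sequenced RNA of untreated spleen monocytes, purified by sorting from C57BL/6 mice, with 3 libraries per group: Ly6Clo (nonclassical) monocytes of Cebpa +37-/- mice, which lack the +37 element of Cebpa on both alleles (KO Ly6Clo), Ly6Clo monocytes of wild-type mice (WT Ly6Clo), and Ly6Chi (classical) monocytes of wild-type mice (WT Ly6Chi). The labels give neither the bounds of the deleted element nor the age of the mice, and do not say whether replicates were separate animals, so each p-value reflects library-to-library spread that may be technical.

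C/EBP proteins are basic leucine zipper (bZIP) transcription factors that bind DNA as dimers with each other or with related zipper proteins. C/EBP-alpha, -beta, -delta and -epsilon carry activating domains, whereas C/EBP-gamma and CHOP, the product of Ddit3, lack a strong one and mostly work as partners or inhibitors of the others. In myeloid cells C/EBP-alpha drives the step to granulocyte and monocyte progenitors, C/EBP-beta supports emergency granulopoiesis and the survival of Ly6Clo monocytes, and C/EBP-epsilon drives late granulocyte maturation. Cebpz is a CCAAT-binding factor by name and has no C/EBP-type leucine zipper.

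The members lie on 6 chromosomes of the GRCm38 build. Cebpa (ENSMUSG00000034957, chr7:35119293-35121928, plus strand) and Cebpg (ENSMUSG00000056216, chr7:35046422-35056573, minus strand) are neighbours with 62719 bases between them. Cebpb (ENSMUSG00000056501) lies at chr2:167688915-167690418, Cebpd (ENSMUSG00000071637) at chr16:15887286-15891031 and Ddit3 (ENSMUSG00000025408) at chr10:127290774-127296288, all on the plus strand. Cebpe (ENSMUSG00000052435) lies at chr14:54710360-54712174 and Cebpz (ENSMUSG00000024081) at chr17:78919006-78937066, both on the minus strand. Cebpa, Cebpb and Cebpd are single-exon genes, while Cebpe has 2 exons, Cebpg 3, Ddit3 4 and Cebpz 16 after merging transcripts.

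RefSeq promoters on GRCm38.p6 were found for 4 of the 7 members, and the 100 bases before each start are shown because Cebpa and Cebpg are neighbours whose transcript levels are compared below. They read 5′ to 3′ on the gene's own strand, with capitals marking a TATAAA in Cebpa and an ATTGG, the reverse complement of CCAAT, in Cebpg and Ddit3. The windows are chr7:35119193-35119292 (plus strand) for Cebpa, chr2:167688815-167688914 (plus) for Cebpb, chr7:35056567-35056666 (minus) for Cebpg and chr10:127290693-127290792 (plus) for Ddit3.
Cebpa: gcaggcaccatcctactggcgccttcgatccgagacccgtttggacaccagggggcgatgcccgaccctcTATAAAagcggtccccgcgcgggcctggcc
Cebpb: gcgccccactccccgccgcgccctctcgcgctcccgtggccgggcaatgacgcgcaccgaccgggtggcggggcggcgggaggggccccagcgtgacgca
Cebpg: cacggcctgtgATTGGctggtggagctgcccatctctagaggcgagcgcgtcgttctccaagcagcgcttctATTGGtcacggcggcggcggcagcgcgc
Ddit3: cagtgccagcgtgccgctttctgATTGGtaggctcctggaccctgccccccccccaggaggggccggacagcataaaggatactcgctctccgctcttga

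Motifs were searched on both strands in the 250 bases before each start. The capitals of Cebpa begin 30 bases before its start, and 12.4% of 32851 promoters of the same length hold those letters. CCAAT, found in 33.8% of promoters, occurs at positions -89 and -28 of Cebpg and -77 of Ddit3, each time on the opposite strand. The C/EBP palindrome TTGCGCAA (0.164% of promoters), the looser C/EBP site TTNNGNAA (36.8%), of which TTGCGCAA is one form, and the composite C/EBP-ATF site TGATGCAAT (0.167%) had no match in the 4 windows, which says only that these letters are not in those 250 bases.

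Gene totals ran from 48141590 to 173703361 counts per library, so 3 counts equalled 0.0173 to 0.0623 CPM (counts scaled to a common library size, here with the TMM method). The subset labels fitted their markers: the 11 Ly6Chi markers summed to 312 to 651 CPM in KO Ly6Clo, 450 to 558 in WT Ly6Clo and 9145 to 12780 in WT Ly6Chi, and the 12 Ly6Clo markers to 10590 to 16680, 13920 to 23280 and 1598 to 7017 CPM in the same groups. Replicate 1 of every group stood apart by low immediate early genes: Fos was at 18.9, 136 and 328 CPM there and between 1776 and 4968 CPM in the other 6 libraries. WT Ly6Chi replicate 3 had 30.0 CPM of Xist and 0 of Ddx3y, whereas the other 8 libraries had at most 0.0417 CPM of Xist and 69.4 to 142 CPM of Ddx3y. These sex-linked levels are of female pattern in WT Ly6Chi replicate 3 and of male pattern in the other 8. That replicate therefore cannot share an animal with any of the other 8 libraries. The part of sex in comparisons with WT Ly6Chi was not tested. The summed 7 erythroid markers ran from 1.78 to 7574 CPM in KO Ly6Clo, 405 to 3355 in WT Ly6Clo and 134 to 229 in WT Ly6Chi. In bulk RNA, fewer cells of a type and less RNA per cell cannot be told apart.

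Cebpa, the gene whose +37 element was deleted, was the member with the largest difference between KO and WT Ly6Clo monocytes relative to its spread. The KO Ly6Clo libraries had 4.04, 2.89 and 2.74 CPM, the WT Ly6Clo libraries 18.2, 17.7 and 19.2, and the WT Ly6Chi libraries 31.5, 51.3 and 51.6. Every KO library lay under every WT Ly6Clo library, and these under every WT Ly6Chi library, while KO Ly6Clo still held 156 or more counts each. Means were 3.22 ± 0.709 CPM in KO Ly6Clo, 18.3 ± 0.7685 in WT Ly6Clo and 44.8 ± 11.5 in WT Ly6Chi (SD, n = 3 each). Genes were tested with edgeR's quasi-likelihood test over 18341 genes and called at a Benjamini-Hochberg adjusted p under 0.05. Cebpa fell in KO against WT Ly6Clo by edgeR, with a log2 fold change of -2.51 (SE 0.27) and an adjusted p = 0.0152. It was the 1 member called of 7 in that comparison, in which 0.0709% of all genes were called (0.0109% as higher, 0.06% as lower). It was also the 1 member whose groups did not overlap, against 10.9% of all genes.

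The size of that difference moved little, but its call sat near the threshold. With the replicate number as a block the log2 fold change was -2.50 and the edgeR adjusted p = 0.0565, and with KO and WT Ly6Clo alone in the fit the adjusted p was 0.127. Without single libraries the log2 fold change ran from -2.71 to -2.41, and the edgeR adjusted p rose above 0.05 without KO replicate 2 (0.0749) or 3 (0.0644), WT Ly6Clo replicate 1 (0.0727), 2 (0.0701) or 3 (0.0794), or WT Ly6Chi replicate 3 (0.0551). Without replicate 1 of every group it was -2.70 with an edgeR adjusted p = 0.0501. The library numbers in the deposited names fall in 2 runs, the first holding KO and WT Ly6Clo replicates 1 and 2 and WT Ly6Chi replicate 1. Within the first run the log2 ratio, with a pseudocount of 0.1 CPM, was -2.34 (2 libraries each) and within the second -2.76 (1 each).

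Between the WT subsets, Cebpa was again lower in the Ly6Clo group (log2 fold change -1.29, SE 0.26, edgeR adjusted p = 0.0323), as the 1 member called, where 3.51% of all genes were (1.88% as higher, 1.62% as lower). That call was lost once the run of library numbers entered the model (-1.22, edgeR adjusted p = 0.0697), and at almost the same fold change without KO replicate 2 (0.0512), WT Ly6Clo replicate 1 (0.117), 2 (0.116) or 3 (0.115), or WT Ly6Chi replicate 2 (0.129) or 3 (0.117). Its log2 ratio within runs was -0.81 (2 libraries against 1) and -1.42 (1 against 2). KO Ly6Clo stood lower still against WT Ly6Chi (log2 fold change -3.80, SE 0.29, edgeR adjusted p = 0.000313), and this call held in all 18 alternatives, with fold changes between -4.19 and -3.68. Each group enters 2 of the 3 comparisons, so these share libraries.

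An antisense gene, Gm45091, shares 51 exonic bases with Cebpa. It had 0 counts in each KO Ly6Clo library, 8, 39 and 16 counts in WT Ly6Clo, and 35, 6 and 21 in WT Ly6Chi. The kit named in the labels does not mark strand, and the sources used here do not give a strand setting for the counting, so reads of the shared bases cannot be assigned to either gene.

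**Figure D1:**
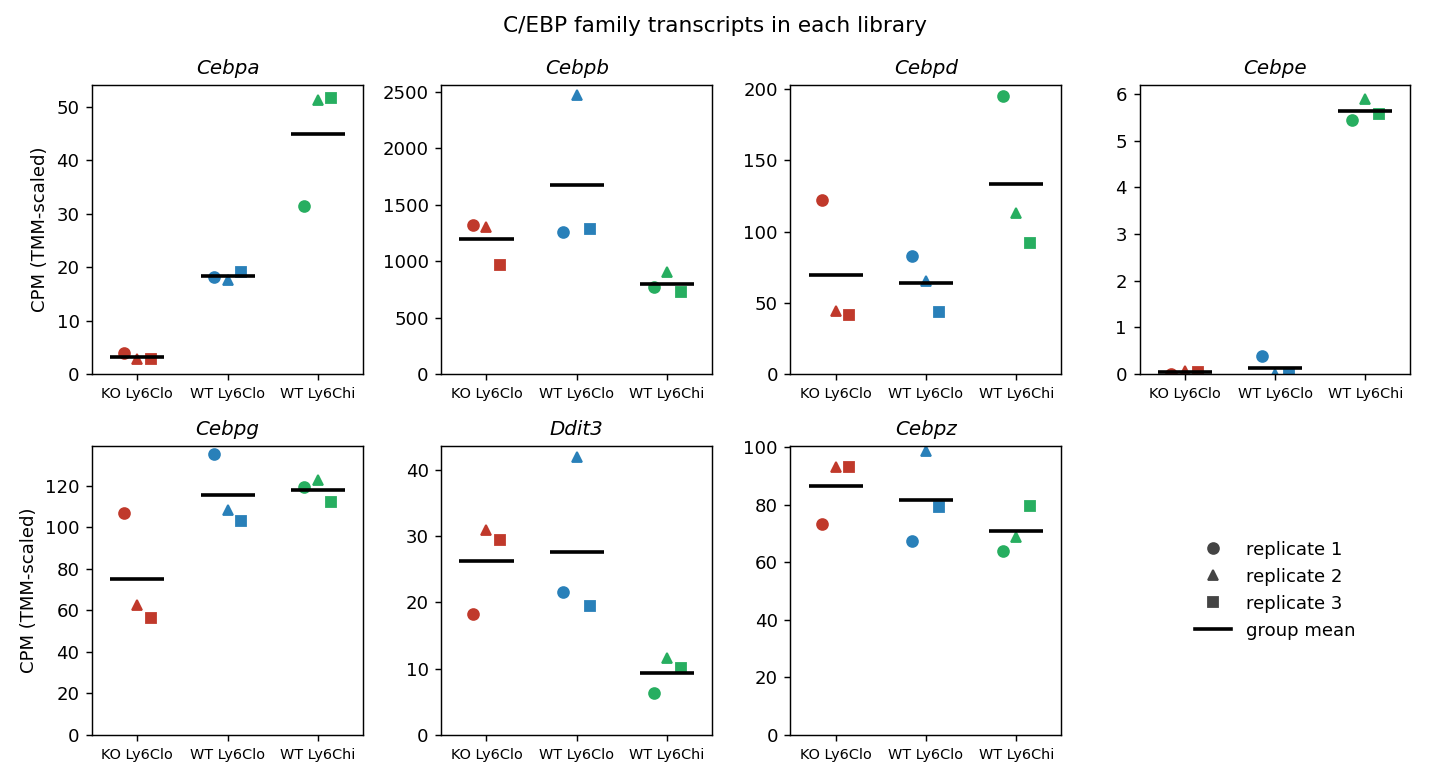
CPM of each member in every library (circles, triangles and squares are replicates 1, 2 and 3; bars are group means), each panel with its own axis from 0. Cebpa is lowest in KO Ly6Clo, then WT Ly6Clo, then WT Ly6Chi, without overlap, Cebpe is near 0 in both Ly6Clo groups, and Cebpd is highest in replicate 1 of every group.

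Cebpb, the activating member most abundant in all 9 libraries, had 1318, 1301 and 966 CPM in KO Ly6Clo, 1257, 2471 and 1288 in WT Ly6Clo, and 768, 900 and 726 in WT Ly6Chi. KO and WT Ly6Clo overlapped, and WT Ly6Clo replicate 2, the most deeply sequenced library, stood well above the rest. Both Ly6Clo groups lay wholly above WT Ly6Chi. Cebpb did not pass the test in KO against WT Ly6Clo, at 1195 ± 198.5 against 1672 ± 692 CPM with a log2 fold change of -0.48 (SE 0.27, edgeR adjusted p = 0.952). The WT Ly6Chi mean was 798 ± 90.6 CPM. WT Ly6Clo lay above it by 1.07 on the log2 scale, which did not pass with edgeR (SE 0.27, edgeR adjusted p = 0.071). This difference passed with DESeq2 (adjusted p = 0.0165), but not with limma-voom (adjusted p = 0.0652). With the run of library numbers in the model the edgeR adjusted p was 0.137. Of 18 alternatives, 2 called it. Without single libraries that fold change ran from 0.67 to 1.25, and within the runs the log2 ratio was 1.28 and 0.66. KO Ly6Clo differed from WT Ly6Chi by 0.58 (SE 0.27, edgeR adjusted p = 0.327).

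Cebpd, an acute-phase member induced by cytokines, had 122, 44.2 and 41.6 CPM in KO Ly6Clo, 82.6, 65.1 and 43.3 in WT Ly6Clo, and 195, 113 and 92.2 in WT Ly6Chi. Replicate 1, the library with low Fos, was the highest of each group, so the spread within groups was wide and KO overlapped both WT groups. Its log2 fold change was 0.12 (SE 0.46, edgeR adjusted p = 1) in KO against WT Ly6Clo and -1.07 (SE 0.47, edgeR adjusted p = 0.271) in WT Ly6Clo against WT Ly6Chi, where the groups did not overlap and the log2 ratio within runs was -1.40 and -1.24. Without replicate 1 of every group the difference of KO from WT Ly6Clo was -0.33, of the opposite sign, and the part of whatever sets those libraries apart was not tested.

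Cebpe, the member of late granulocyte maturation, was close to the detection limit in Ly6Clo monocytes. It had 0, 11 and 3 counts in KO Ly6Clo, 21, 1 and 1 in WT Ly6Clo, and 304, 283 and 273 in WT Ly6Chi. In CPM this was 0, 0.0772 and 0.0527 in KO Ly6Clo, 0.385, 0.00663 and 0.0191 in WT Ly6Clo, and 5.44, 5.90 and 5.57 in WT Ly6Chi. The Ly6Clo groups overlapped each other and lay wholly under WT Ly6Chi, whose 3 libraries were close together. The 0 counts of KO replicate 1 allow up to 0.0496 CPM, by counting error only.

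Cebpe fell in KO Ly6Clo against WT Ly6Chi (log2 fold change -6.90, SE 1.59, edgeR adjusted p = 0.0441), 1 of 2 members called there beside Cebpa, where 4.52% of all genes were called (2.06% as higher, 2.46% as lower). For WT Ly6Clo over WT Ly6Chi it was -5.40 (SE 1.47, edgeR adjusted p = 0.0885), and without WT Ly6Clo replicate 1, which holds 21 of that group's 23 counts, it was called (edgeR adjusted p = 0.027), the fitted value of -8.80 being no measure of size with 1 count left in each of the other 2 libraries. That comparison also passed with DESeq2 (adjusted p = 0.000257), limma-voom (0.00926) and edgeR without a filter (0.0346). In all, 5 of 18 alternatives called it. The call of KO Ly6Clo against WT Ly6Chi was lost (edgeR adjusted p from 0.0591 to 0.158) without any of the KO or WT Ly6Chi libraries or WT Ly6Clo replicate 3, with fold changes from -7.70 to -6.38, and when the run of library numbers entered the model (-7.14, edgeR adjusted p = 0.0669). Within the runs the log2 ratio was -5.32 and -5.26. In KO against WT Ly6Clo, Cebpe did not pass the test, at -1.50 on the log2 scale (SE 1.35, edgeR adjusted p = 1).

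Markers of granulocytes and their progenitors followed Cebpe only in part. The 11 neutrophil markers summed to 172 to 364 CPM in KO Ly6Clo, 362 to 465 in WT Ly6Clo and 630 to 1225 in WT Ly6Chi. Most of the Ly6Clo sums was Csf3r, the G-CSF receptor, at 169.5, 269 and 328.5 CPM in KO Ly6Clo, 356, 447 and 459 in WT Ly6Clo, and 297, 389.5 and 473 in WT Ly6Chi. Of the 11, edgeR called 5 as lower and 0 as higher in WT Ly6Clo against WT Ly6Chi (1.62% and 1.88% of all genes). It called 2 as lower and 0 as higher in KO Ly6Clo against WT Ly6Chi (2.46% and 2.06%). In KO against WT Ly6Clo 0 were called (4 with an unadjusted p under 0.05, beside 6.16% of all genes). There 9 of 11 fold changes were positive, opposite to the order of the sums and to the sign of Cebpe.

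The neutrophil markers differed among themselves. The granule gene Ngp had at most 4.07 CPM in KO Ly6Clo and 0 counts in WT Ly6Clo, against 35.0 to 256 CPM in WT Ly6Chi. Ltf, lactoferrin, had at most 1.404 CPM in KO Ly6Clo and 0.0199 in WT Ly6Clo, against 20.9 to 121 in WT Ly6Chi. S100a9 had at most 14.6 CPM in KO Ly6Clo and 2.31 in WT Ly6Clo, against 82.3 to 195 in WT Ly6Chi, and Lcn2 at most 1.299 and 0.895, against 19.1 to 47.6 CPM. Ly6g, which defines neutrophils, stayed at or under 0.411 CPM in every library, and Retnlg, Mmp9 and Cxcr2 at or under 3.48 CPM. The 8 progenitor and primary granule markers summed to 11.7, 96.4 and 32.6 CPM in KO Ly6Clo. Their sums were 5.54, 41.7 and 29.6 CPM in WT Ly6Clo, and 130, 49.6 and 43.2 in WT Ly6Chi. KO replicate 2 lay above 2 of the WT Ly6Chi libraries, with 74.9 CPM of Kit, 16.5 of Myb and 4.39 of Cd34. Mpo, Elane, Prtn3, Ctsg and Ms4a3 were at or under 0.5821 CPM in that library. In WT Ly6Chi, Mpo was at 10.4 to 27.4 CPM, Elane at 8.70 to 30.8 and Prtn3 at 7.72 to 54.8. Ctsg was at 2.07 to 8.21 CPM there and Ms4a3 at 0.858 to 2.12. Of these 8, edgeR called 0 in KO against WT Ly6Clo (1 with an unadjusted p under 0.05, beside 6.16% of all genes). It called 2 as lower in WT Ly6Clo against WT Ly6Chi (1.62% of all genes). In KO Ly6Clo against WT Ly6Chi it called 0 (5 with an unadjusted p under 0.05, beside 16.9% of all genes), and 3 fold changes were positive. Their part in the level of Cebpe was not tested.

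Cebpg, a widely expressed partner without a strong activating domain and the neighbour of Cebpa, had 107, 62.6 and 56.3 CPM in KO Ly6Clo, 135, 108 and 103 in WT Ly6Clo, and 119, 123 and 112 in WT Ly6Chi. KO replicates 2 and 3 lay under every WT library, whereas KO replicate 1 lay within the WT Ly6Clo range and just under WT Ly6Chi. The mean was 75.2 ± 27.6 CPM in KO Ly6Clo, 115.5 ± 17.4 in WT Ly6Clo and 118 ± 5.43 in WT Ly6Chi. On the log2 scale, Cebpg did not pass in KO against WT Ly6Clo (-0.62, SE 0.25, edgeR adjusted p = 0.743) or in KO Ly6Clo against WT Ly6Chi (-0.65, SE 0.25, edgeR adjusted p = 0.216). Without KO replicate 1 the first of these was -0.97 and still did not pass (edgeR adjusted p = 0.141). The second was then -1.0 with an edgeR adjusted p = 0.0236. The WT groups differed by -0.03 (SE 0.24, edgeR adjusted p = 0.967).

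Ddit3 encodes CHOP, an inhibitory partner of C/EBP proteins induced by endoplasmic reticulum stress. It had 18.2, 30.9 and 29.4 CPM in KO Ly6Clo, 21.6, 41.9 and 19.5 in WT Ly6Clo, and 6.33, 11.6 and 10.1 in WT Ly6Chi. The 6 Ly6Clo libraries lay above the 3 WT Ly6Chi libraries, and KO and WT Ly6Clo overlapped. The log2 fold change was 1.57 (SE 0.38, edgeR adjusted p = 0.061) in WT Ly6Clo against WT Ly6Chi. In KO Ly6Clo against WT Ly6Chi it was 1.49 (SE 0.38, edgeR adjusted p = 0.0671), and neither passed. Both passed with DESeq2 (adjusted p = 0.00382 and 0.00659), but not with limma-voom (adjusted p = 0.0679 and 0.0878). With the run of library numbers in the model the edgeR adjusted p was 0.105 and 0.104. Of 18 alternatives in each comparison, 4 and 5 called Ddit3. Within the runs the log2 ratio was 2.31 and 0.84 for WT Ly6Clo over WT Ly6Chi, and 1.94 and 1.43 for KO Ly6Clo over WT Ly6Chi. In KO against WT Ly6Clo it was -0.08 (SE 0.37, edgeR adjusted p = 1).

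Cebpz varied least. It had 73.2, 93.1 and 93.3 CPM in KO Ly6Clo, 67.4, 98.8 and 79.3 in WT Ly6Clo, and 63.8, 69.0 and 79.7 in WT Ly6Chi. All groups overlapped, and no fold change exceeded 0.29 (SE 0.19, edgeR adjusted p = 0.528), that of KO Ly6Clo against WT Ly6Chi.

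Counted over the family, 5 of 7 members (Cebpa, Cebpb, Cebpd, Cebpe and Ddit3) had WT Ly6Clo and WT Ly6Chi libraries that did not overlap, against 28.3% of all genes. Also 5 of 7 (Cebpa, Cebpb, Cebpe, Cebpg and Ddit3) had KO Ly6Clo and WT Ly6Chi libraries that did not overlap, against 22.9%. The directions were mixed, with Cebpb and Ddit3 higher and the others of these lower in the Ly6Clo libraries. The median log2 fold change of the 7 members was -0.48 in KO against WT Ly6Clo, -0.03 in WT Ly6Clo against WT Ly6Chi and -0.65 in KO Ly6Clo against WT Ly6Chi, beside 0.03, -0.0042 and 0.04 over all genes tested.

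**Figure D2:**
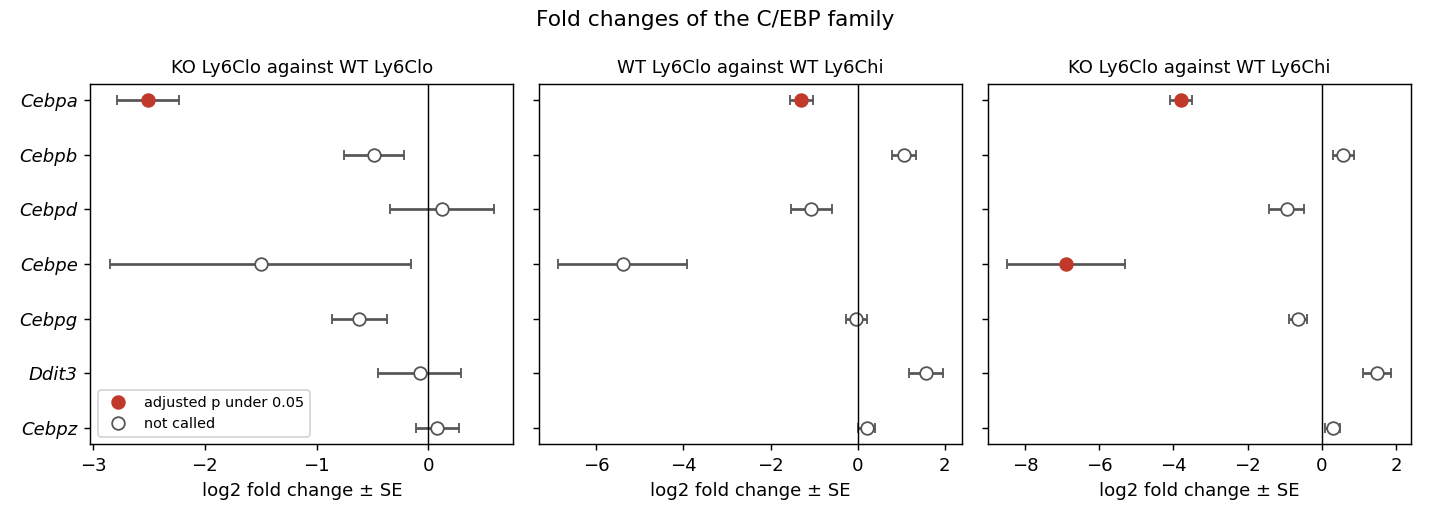
Log2 fold changes of the 7 members with their standard errors in the 3 comparisons (filled, adjusted p under 0.05; open, not called; each panel has its own axis). Cebpa is called in all 3 panels, at -2.51, -1.29 and -3.80, and Cebpe in KO Ly6Clo against WT Ly6Chi, at -6.90.

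Levels of different members were compared in TPM, a level that also divides counts by gene length. Cebpb had 2886, 2779 and 2170 TPM in KO Ly6Clo, 2657, 4708 and 2733 in WT Ly6Clo, and 1581, 1805 and 1465 in WT Ly6Chi. It ranked between 15 and 61 among all gene IDs, whereas Cebpa ranked 10134 to 11571 in KO Ly6Clo, 5626 to 5910 in WT Ly6Clo and 2864 to 4038 in WT Ly6Chi. Cebpb made up 92.2 ± 0.979% of the family's summed TPM in KO Ly6Clo, 93.0 ± 1.82% in WT Ly6Clo and 84.2 ± 1.64% in WT Ly6Chi. Cebpa made up 0.142 ± 0.0216%, 0.643 ± 0.222% and 2.71 ± 0.74% in the same groups (SD, n = 3 each).

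Ratios of other members to Cebpa also differed between groups. Cebpb exceeded Cebpa 572, 789 and 618 times in TPM in the KO Ly6Clo libraries, 121, 245 and 118 times in WT Ly6Clo, and 42.7, 30.7 and 24.6 times in WT Ly6Chi. Cebpg exceeded its neighbour Cebpa 12.4, 10.2 and 9.63 times in KO Ly6Clo, 3.50, 2.88 and 2.51 times in WT Ly6Clo, and 1.77, 1.12 and 1.02 times in WT Ly6Chi. Neither ratio overlapped between any of the groups. Cebpa divides both ratios and itself did not overlap between the groups, so the ratios are no result apart from it. Cebpg alone differed by -0.03 on the log2 scale between the WT groups.

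The order of mean TPM differed between groups below Cebpb. In KO Ly6Clo, Cebpz (61.2), Cebpd (61.0), Ddit3 (50.4) and Cebpg (44.1 TPM) overlapped as neighbours, and Cebpa (4.03) and then Cebpe (0.114 TPM) lay apart below them. In WT Ly6Clo, Cebpg (63.4), Cebpz (53.7), Cebpd (52.3) and Ddit3 (48.8 TPM) likewise overlapped as neighbours, above Cebpa (21.4) and Cebpe (0.35 TPM). In WT Ly6Chi, Cebpd (109 TPM) lay apart above Cebpg (64.1) and that above Cebpa (51.7 TPM), which overlapped Cebpz (46.3), and Ddit3 (16.6) overlapped Cebpe (13.9 TPM) at the bottom. Cebpa lay under Cebpz in every KO and WT Ly6Clo library.

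**Figure D3:**
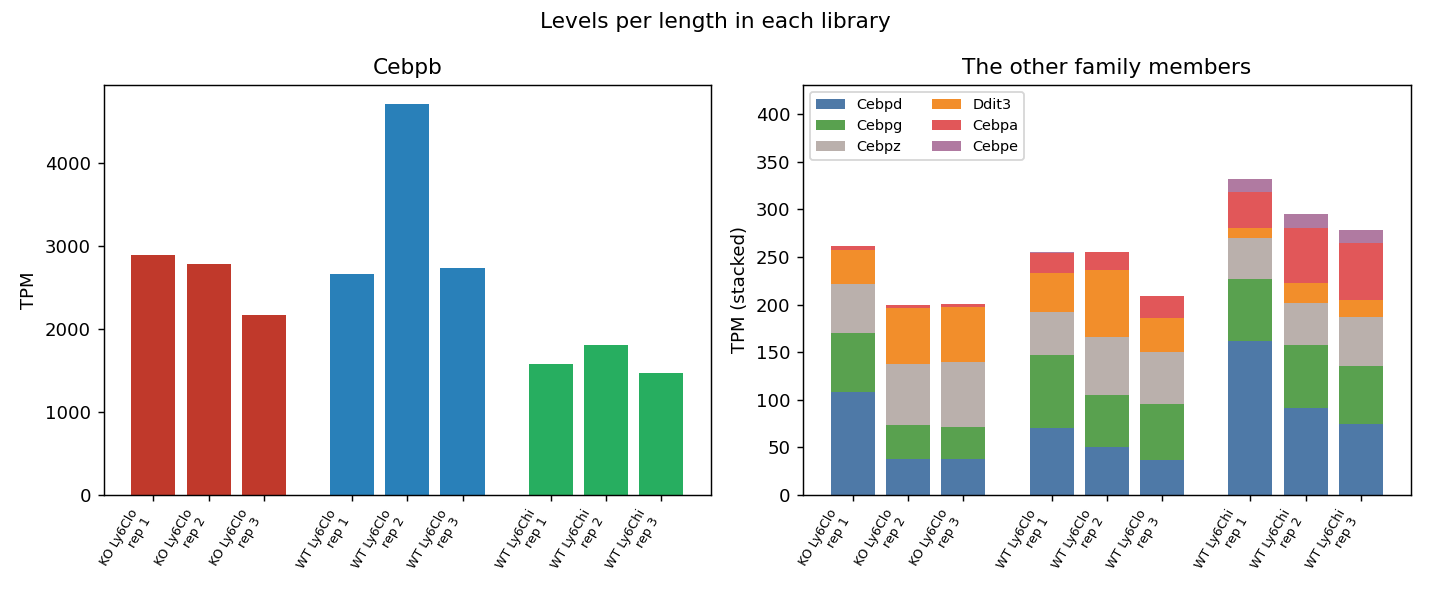
TPM of Cebpb (left) and of the other 6 members stacked (right) in each library, both axes from 0. Cebpb is at 1465 TPM or more in every library, and the Cebpa segment is 3.51 to 5.04 TPM high in KO Ly6Clo, 19.2 to 23.2 in WT Ly6Clo and 37.0 to 59.4 in WT Ly6Chi.

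The genes most alike in pattern were sought among 8994 protein-coding genes of at least 5 CPM on average, by Pearson's r of log2(CPM + 1) over the 9 libraries, which share 3 groups and their depths. For Cebpa these were Cd40 (r = 0.986), Abca9 (0.983), Ldhb (0.983) and Mgst1 (0.97). Cd40, a costimulatory receptor, had 6.32 to 8.91 CPM in KO Ly6Clo, 21.3 to 27.4 in WT Ly6Clo and 47.6 to 67.3 in WT Ly6Chi. Ldhb, a lactate dehydrogenase subunit, had 1.78, 2.90 and 1.32 CPM in KO Ly6Clo, 12.7, 15.6 and 12.8 in WT Ly6Clo, and 34.4, 74.5 and 61.5 in WT Ly6Chi. All 4 genes had the same order of groups as Cebpa, which their choice by r over these same libraries favours.

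For Cebpb the genes most alike were Klf10 (r = 0.947), Bcl7b, Map1lc3b and Rab8a, all highest in WT Ly6Clo replicate 2. For Cebpd they were Pitpna (0.979), Acadm, Trappc3 and Ggh, each highest in WT Ly6Chi replicate 1. For Cebpe they were F13a1 (0.992), Cd93, Cd177 and Rhou, all near 0 in Ly6Clo libraries beside their WT Ly6Chi level. F13a1, a coagulation factor subunit, had at most 1.98 CPM in KO Ly6Clo and 3.37 in WT Ly6Clo, against 1487 to 2401 in WT Ly6Chi. For Cebpg they were Orai3 (0.982), Arpc1b, Tm6sf1 and Tifab, for Cebpz Ptger4 (0.981), Helz, Acap2 and Sgk1, and for Ddit3 Nop56 (0.985), Dcp1a, Gpcpd1 and Uck1.

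**Figure D4:**
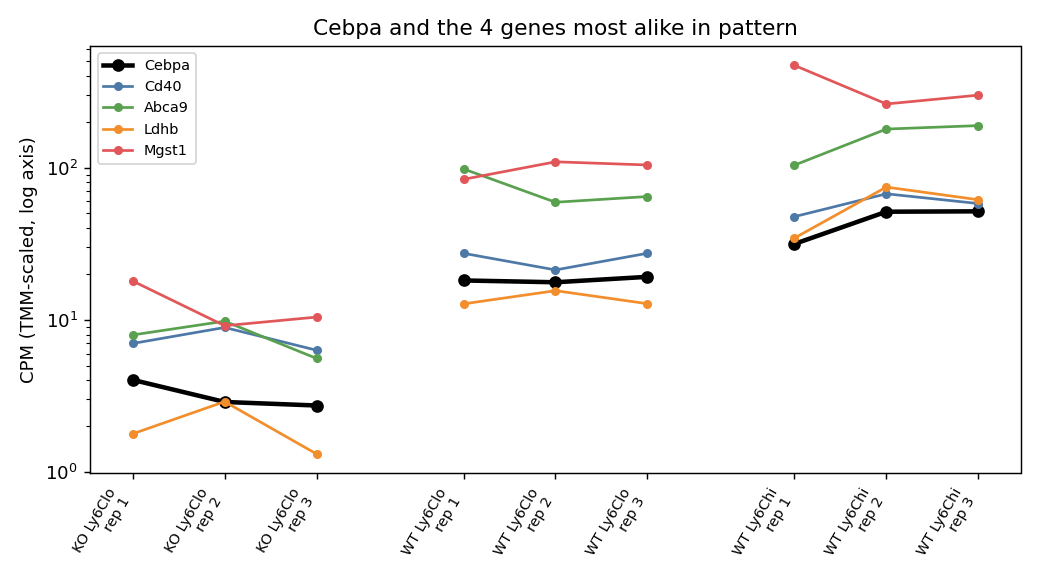
CPM (log axis) of Cebpa and the 4 genes with the highest Pearson r to it, by library; lines join libraries of a group for the eye. In all 5 genes every KO Ly6Clo library lies under every WT Ly6Clo library and these under every WT Ly6Chi library. The choice of the 4 by r over these libraries favours this shared order.

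Genes that act on C/EBP proteins did not pass the test. Of 15 genes of C/EBP turnover, translation and modification, edgeR called 0 in each comparison. An unadjusted p under 0.05 was reached by 1 in KO against WT Ly6Clo (6.16% of all genes did), by 3 between the WT subsets (18.2%) and by 3 between KO Ly6Clo and WT Ly6Chi (16.9%). In this order of comparisons, used below as well, DESeq2 called 0, 1 and 2 and limma-voom 0, 0 and 0. Their median log2 fold changes were 0.02, 0.29 and 0.40. Calr, a chaperone that binds CEBPA mRNA in human cells, had 371 ± 140 CPM in KO Ly6Clo, 407 ± 22.0 in WT Ly6Clo and 349 ± 40.5 in WT Ly6Chi. Trib1, a pseudokinase that brings C/EBP-alpha to the ubiquitin ligase Cop1, had 197 ± 148 CPM in KO Ly6Clo and 183 ± 122 in WT Ly6Clo. The WT Ly6Chi libraries had 8.66, 84.7 and 110.5 CPM of Trib1, overlapping both Ly6Clo groups, and replicate 1 was the lowest of each group.

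Other bZIP factors can share dimers or binding sites with the family. Of 34 tested, edgeR called 0 in KO against WT Ly6Clo (2 with an unadjusted p under 0.05, beside 6.16% of all genes; DESeq2 called 1, limma-voom 0). It called 2 as higher in WT Ly6Clo against WT Ly6Chi (3.51% of all genes were called) and 1 as higher and 1 as lower in KO Ly6Clo against WT Ly6Chi (4.52% of all genes). These shares are near those over all genes. Their median log2 fold changes were -0.20, 0.16 and -0.05. Tef, a factor of the clock-output family, rose to 118 ± 30.3 CPM in WT Ly6Clo, against 34.6 ± 4.92 in WT Ly6Chi (log2 fold change 1.77, edgeR adjusted p = 0.00865), and stood at 75.4 ± 17.6 CPM in KO Ly6Clo (1.12 over WT Ly6Chi, edgeR adjusted p = 0.0408). Jdp2, a Jun dimerization partner, rose to 57.8 ± 14.7 CPM in WT Ly6Clo, against 14.7 ± 4.20 in WT Ly6Chi (1.97, edgeR adjusted p = 0.0141).

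Without WT Ly6Chi replicate 2 or 3, KO replicate 3 or WT Ly6Clo replicate 2, 0 of the bZIP genes were called in KO Ly6Clo against WT Ly6Chi, likewise with the run term. The 2 higher calls in WT Ly6Clo against WT Ly6Chi were 1 without WT Ly6Clo replicate 2, without WT Ly6Chi replicate 2 or without replicate 1 of every group. The AP-1 genes Junb (1628 ± 918 against 2533 ± 2261 CPM) and Fos (1237 ± 1057 against 2068 ± 1849 CPM) spread so widely in KO and WT Ly6Clo that a difference was not detectable. Replicate 1 was the lowest library of each group for both.

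Of 30 genes bound or driven by C/EBP factors in myeloid cells, 29 were tested. By edgeR, 0 were called in KO against WT Ly6Clo (8 with an unadjusted p under 0.05, beside 6.16% of all genes; DESeq2 called 1, limma-voom 0). In WT Ly6Clo against WT Ly6Chi 8 were lower and 1 higher (1.62% and 1.88% of all genes), and in KO Ly6Clo against WT Ly6Chi 4 were lower and 0 higher (2.46% and 2.06%). The count of lower calls in KO Ly6Clo against WT Ly6Chi was 11 without a filter, 7 at 1 CPM, 8 with DESeq2 and 7 with limma-voom, and in WT Ly6Clo against WT Ly6Chi 10, 8, 8 and 6, so the 2 comparisons are not shown to differ in it. Median log2 fold changes were -0.0034, -1.08 and -0.85, the same with Ngp, which had 0 counts in WT Ly6Clo, set at its bound. Of the 30, 11 are also on the neutrophil or progenitor marker lists, whose sums stand above beside Cebpe.

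Lyz2, lysozyme, fell to 15500 ± 1350 CPM in WT Ly6Clo, against 39080 ± 2658 in WT Ly6Chi (log2 fold change -1.33, edgeR adjusted p = 0.0052). KO Ly6Clo had 11060, 7457 and 11530 CPM of Lyz2, against 16990, 15160 and 14360 in WT Ly6Clo. These groups did not overlap, but Lyz2 did not pass (log2 fold change -0.63, SE 0.17, edgeR adjusted p = 0.464). Fcgr1, the high-affinity IgG receptor, was at 43.2, 40.4 and 23.5 CPM in KO Ly6Clo, 21.7, 17.2 and 21.6 in WT Ly6Clo, and 80.7, 90.3 and 83.9 in WT Ly6Chi. It fell in WT Ly6Clo (-2.07, edgeR adjusted p = 0.00346) and in KO Ly6Clo (-1.25, edgeR adjusted p = 0.0224) against WT Ly6Chi.

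S100a8, a calprotectin subunit, fell to 4.95 ± 3.92 CPM in KO Ly6Clo (-4.52 against WT Ly6Chi, edgeR adjusted p = 0.0302) and to 0.821 ± 0.8775 in WT Ly6Clo (-7.13, edgeR adjusted p = 0.0103), against 113 ± 38.1 in WT Ly6Chi. Camp, the cathelicidin of neutrophil granules, had 24 counts in KO Ly6Clo, 2 in WT Ly6Clo and 6138 in WT Ly6Chi, summed over libraries, and all 24 lay in KO replicate 3. Its fitted log2 fold change in KO Ly6Clo against WT Ly6Chi was -8.38 (SE 1.78, edgeR adjusted p = 0.0326). The log2 ratio of summed counts was -12.34 in WT Ly6Clo against WT Ly6Chi, with a 95% interval of -15.38 to -10.48 that covers counting error only, and the edgeR call there had an adjusted p = 0.0214. Nr4a1, a nuclear receptor needed for Ly6Clo monocytes, had 4497 ± 2499 CPM in KO Ly6Clo and 6376 ± 4399 in WT Ly6Clo (-0.50, SE 0.81, edgeR adjusted p = 1). Leaving out single libraries changed the number lower to between 3 and 8 in WT Ly6Clo against WT Ly6Chi (3 without WT Ly6Clo replicate 1 or 2 or WT Ly6Chi replicate 2 or 3, 4 without WT Ly6Clo replicate 3, 5 without WT Ly6Chi replicate 1), and to between 1 and 6 in KO Ly6Clo against WT Ly6Chi (1 without KO replicate 2 or WT Ly6Chi replicate 2 or 3, 2 without WT Ly6Chi replicate 1).

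**Figure D5:**
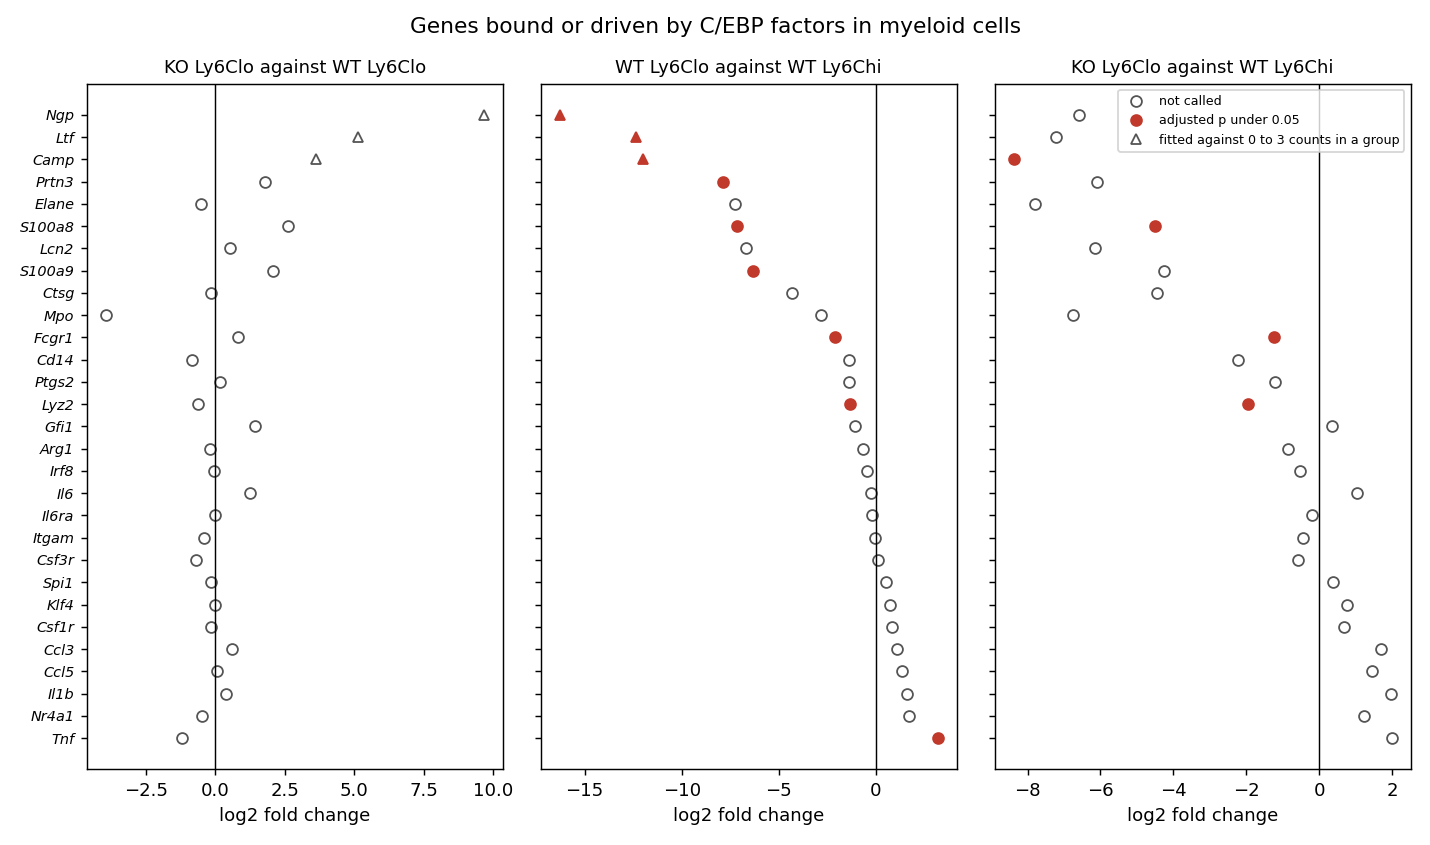
Log2 fold changes of 29 genes bound or driven by C/EBP factors in the 3 comparisons, ordered by WT Ly6Clo against WT Ly6Chi (filled, adjusted p under 0.05; triangles, fitted against 0 to 3 counts in a group and so no measure of size; each panel has its own axis). The 8 lower calls of the middle panel include Lyz2 and Fcgr1, and the left panel holds no call.

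Around Ddit3, 16 genes of the integrated stress response were tested, 3 of them also on the bZIP list. By edgeR, 0 were called in each comparison and 1, 3 and 3 had an unadjusted p under 0.05, near the 6.16%, 18.2% and 16.9% of all genes, while DESeq2 called 0, 2 and 2 and limma-voom 0, 0 and 0. Median log2 fold changes were -0.31, 0.16 and 0.00057. Hspa5, the chaperone BiP, had 790 ± 183 CPM in KO Ly6Clo, 1027 ± 356 in WT Ly6Clo and 834 ± 57.5 in WT Ly6Chi. Xbp1, a factor of the unfolded protein response, had 644 ± 123, 617.5 ± 95.2 and 632 ± 28.0 CPM in the same groups.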

How the data were processed

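Monocyte RNA was sequenced in 9 libraries (3 groups of 3, taken with replicate numbers from the titles). The tables hold whole-number counts per gene, not normalized, deposited by the authors with CPM, FPKM and TPM columns, per the file headers. The deposited CPM and TPM equal values recomputed from counts and length (largest difference 6e-11), and the deposited FPKM was not used. The submitters' processing notes name STAR 2.5.1a, featureCounts 1.4.6-p5, Salmon 0.8.2, edgeR and limma and the build GRCm38, with no roles. For the strand setting of the counting, the sources used here give nothing. Symbols came from GENCODE M21 (99.38% of IDs). Other exons that overlap members on the opposite strand are those of Tmem189 (312 bases, Cebpb), Spidr (562, Cebpd), Cebpzos (171, Cebpz), Mars (68, Ddit3), Gm4189 (13, Ddit3) and Gm45095 (4, Cebpg), so those members' counts are less certain.

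The count model was fitted in R 4.3.3 by edgeR 4.0.16, with filterByExpr (minimum count 10, 18341 genes kept, all 7 members among them), TMM scaling, 1 term per group over all 9 libraries, the quasi-likelihood test and Benjamini-Hochberg adjustment. The procedure was tested on simulated data. Standard errors come from the F statistic. Libraries of 1 group differed by a chi-square per gene of 49.1 to 425, far above sampling noise. Depth was 48141590 to 173703361 counts. Intervals and floors cover counting error only, since PCR copies cannot be told from molecules.

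Members and gene lists were chosen with earlier results of these data known. The members are always named. Of 4 further lists (C/EBP turnover, translation and modification; other bZIP factors; genes bound or driven by C/EBP factors; integrated stress response), up to 4 called genes with the smallest adjusted p are named per comparison, or the 2 with the highest level where there was no call, and for each member the 4 genes most alike. Results of 2 genes that this rule names are not reported here. Rfwd2 and Ero1a, listed as older or newer names of Cop1 and Ero1l, have no row of their own.

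Replicate numbers were checked as pairs: same-numbered KO and WT Ly6Clo libraries deviated together (correlations of deviations 0.463, 0.351 and 0.121). That met the rule of over 0.1 in every pair, although no label gives pairs. The check cannot show pairing, because libraries of unlike number were not compared. In these 2 groups the number also follows the run of library numbers, and replicate 1 the low Fos. The rule was not met for WT Ly6Clo with WT Ly6Chi (lowest 0.0683) or KO Ly6Clo with WT Ly6Chi (lowest -0.00733). Alternatives were RLE scaling, no filter, at least 1 CPM in 3 libraries, DESeq2 1.42.0, limma-voom 3.58.1, the 2 groups alone, the replicate block, the 2 runs of library numbers as a model term, each library left out, and count shares in place of TPM shares. Leaving out replicate 1 of every group was added after seeing the data.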

Additional observations from a re-analysis of the deposited data

How the results depend on the processing

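The fold change of Cebpa kept its direction under all 18 alternatives of each comparison. Members called in KO against WT Ly6Clo were 0 with the replicate block, with the 2 groups alone and without replicate 1 of every group, and 0 to 1 without single libraries (1 as reported). In WT Ly6Clo against WT Ly6Chi (1) they were 3 without a filter, 2 at 1 CPM, 4 with DESeq2, 2 with limma-voom, 3 with the block (Cebpb, Cebpd and Ddit3), 0 with the run term, 2 without replicate 1 of every group and 0 to 1 without single libraries. In KO Ly6Clo against WT Ly6Chi (2) they were 3 without a filter, at 1 CPM, with DESeq2, with the block and without replicate 1 of every group, 1 with the run term and 1 to 3 without single libraries. With the block, Cebpe was not called there (adjusted p = 0.0734), while Cebpd and Ddit3 were (adjusted p = 0.0395 and 0.0226). No label pairs samples in these comparisons with WT Ly6Chi. By its sex-linked levels, WT Ly6Chi replicate 3 cannot share an animal with replicate 3 of either Ly6Clo group. Same-numbered libraries of replicates 1 and 3 do share a run of library numbers, and those of replicate 1 the low Fos.

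All genes called in KO against WT Ly6Clo (13, with 2 higher and 11 lower) were 54 without a filter (16 and 38), 27 at 1 CPM (6 and 21), 358 with DESeq2 (205 and 153), 2 without replicate 1 of every group, 0 with the 2 groups alone by edgeR (1130 had an unadjusted p under 0.05 in the fit of all groups) and 2 to 21 without single libraries. DESeq2 called 2032 in WT Ly6Clo against WT Ly6Chi (643 by edgeR, 239 to 847 without single libraries) and 1986 in KO Ly6Clo against WT Ly6Chi (829, 379 to 818). The cause was not tested.

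Small fold changes turned round. Without single libraries they ran in KO against WT Ly6Clo from -0.58 to 0.38 (Cebpd), -2.30 to 1.89 (Cebpe), -0.29 to 0.37 (Ddit3) and -0.06 to 0.25 (Cebpz), and in WT Ly6Clo against WT Ly6Chi from -0.15 to 0.06 (Cebpg). In KO against WT Ly6Clo, Cebpd was at -0.06 with limma-voom, -0.01 with the block, -0.58 without KO replicate 1, -0.10 without WT Ly6Clo replicate 3 and -0.33 without replicate 1 of every group. Cebpe was at 0.22 with limma-voom, 1.89 without WT Ly6Clo replicate 1 and 2.45 without replicate 1 of every group. Ddit3 was at 0.11 without KO replicate 1 and 0.37 without WT Ly6Clo replicate 2, and Cebpz at -0.06 without WT Ly6Clo replicate 1. In WT Ly6Clo against WT Ly6Chi, Cebpg was at 0.03 without a filter, 0.01 without WT Ly6Clo replicate 2 or WT Ly6Chi replicate 2, and 0.06 without WT Ly6Clo replicate 3.

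Counted without division by length, Cebpb made up 82.1% of the family in KO Ly6Clo, 83.5% in WT Ly6Clo and 67.5% in WT Ly6Chi, and Cebpa 0.221%, 1% and 3.82%. Without single libraries the TPM shares of Cebpb were 91.6 to 92.5%, 92.1 to 93.9% and 83.4 to 85% in these groups, and those of Cebpa 0.133 to 0.154%, 0.569 to 0.77% and 2.37 to 3.1%. Of the 6 Ly6Clo libraries, 4 held 3 or fewer counts of Cebpe, with 1 count in WT Ly6Clo replicate 2, the deepest library, and 21 in WT Ly6Clo replicate 1, so spread between libraries as well as low counts limits its comparison.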
